A study of Mus musculus with 2 samples.

Results

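Mir140 and Mir455 are the 2 microRNA genes of the mouse genome best known from cartilage, and both are described here in whole limb of mouse embryos. They were picked by symbol: of 1973 microRNA genes in the count tables, the 2 whose Ensembl identifiers carry these symbols in GENCODE are Mir140 (ENSMUSG00000065439.1) and Mir455 (ENSMUSG00000070102.1). The study profiled RNAs shorter than 30 nucleotides, the size class of mature microRNAs, in limbs of B6NCrl embryos of both sexes at 14.5 days of development. It held 1 untreated group of 2 libraries, which the labels number as biological replicates 1 and 2. Each is labelled as 4 limbs of 1 pup, although the sex label gives a pool of both sexes. The collection days differed and both libraries carried the same donor label. Animal, collection day and library preparation cannot be told apart here, so differences between these libraries may be technical or biological. The p-values set the reads of these 2 libraries against counting noise only.

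A microRNA is cut from a hairpin precursor, whose mature arms guide Argonaute proteins to complementary sites in mRNAs, mostly through the seed, bases 2 to 8 of the arm. Mir140 is transcribed in chondrocytes of growing cartilage, where the transcription factor Sox9 is known to drive it, and mice without it have short long bones. Mir455 is likewise made in developing cartilage, and mice without it develop worn joint cartilage. At this stage of limb development the skeleton is still largely cartilage, embedded in muscle, connective tissue, vessels and skin.

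The 3 mature arms that follow, as RefSeq gives them for GRCm38.p6, are shown because the libraries held RNAs of their size class. Capitals mark the seed.
mmu-miR-140-3p: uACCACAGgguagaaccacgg
mmu-miR-455-5p: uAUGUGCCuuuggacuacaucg
mmu-miR-455-3p: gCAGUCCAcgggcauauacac
On GRCm38 the first lies at chr8:107551288-107551308, the second at chr4:63256867-63256888 and the third at chr4:63256904-63256924, all on the plus strand. The 3 seeds differ from one another, so the arms shown for the 2 genes have different target sites by seed. Mir140 is also the source of miR-140-5p. The counts are per precursor gene, so the reads of a gene cannot be divided between its arms.

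Among 1738 mature arms in the RefSeq table, only 2 arms of other genes carried one of these 3 seeds. They are shown to compare the bases after the seed.
mmu-miR-497b: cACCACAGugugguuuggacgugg
mmu-miR-5129-3p: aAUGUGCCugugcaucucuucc
The first has the seed of mmu-miR-140-3p and shares 11 of the first 21 bases with it, position by position. The second has the seed of mmu-miR-455-5p and shares 14 of the first 21 bases with it. Mir497b, the gene of the first, had 1 count in replicate 1 and 3 counts in replicate 2. Mir5129, the gene of the second, had 0 counts in replicate 1 and 1 count in replicate 2. Both were thus at or below the floor of 3 counts (0.651 CPM in the first library, 0.724 CPM in the second), far below the counts of Mir140 and Mir455. The seed of mmu-miR-455-3p occurred in no other arm of the table.

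Both precursors lie in introns of protein-coding genes, in the direction of the host's transcription. Mir140 occupies 70 bases of chromosome 8, from 107551244 to 107551313 on GRCm38, within Wwp2, which encodes a ubiquitin ligase. In the longest annotated transcript, Wwp2-201, it sits between exons 16 and 17 of 24, 1108 bases after one and 963 bases before the other. Another protein-coding transcript, Wwp2-205, starts 6232 bases upstream of the precursor, against 114879 bases for Wwp2-201. Mir140 also falls within the single exon of Wwp2-206, a transcript annotated as a retained intron, so its annotation is intronic in 3 transcripts and exonic in 1.

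Mir455 occupies 82 bases of chromosome 4, from 63256851 to 63256932, within Col27a1, which encodes a fibrillar collagen of cartilage. In Col27a1-201 it sits between exons 10 and 11 of 61, 2109 bases after one and only 127 bases before the other. The start of that transcript lies 41416 bases upstream. All 4 transcripts that span Mir455 place it in this same intron of 2318 bases. Neither gene has a near neighbour among the microRNA genes of the tables, the closest lying 290 kb from Mir140 and 4816 kb from Mir455, and no gene on the opposite strand overlaps either. Host transcripts were not measured, since the assay read small RNAs only.

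**Figure D1:**
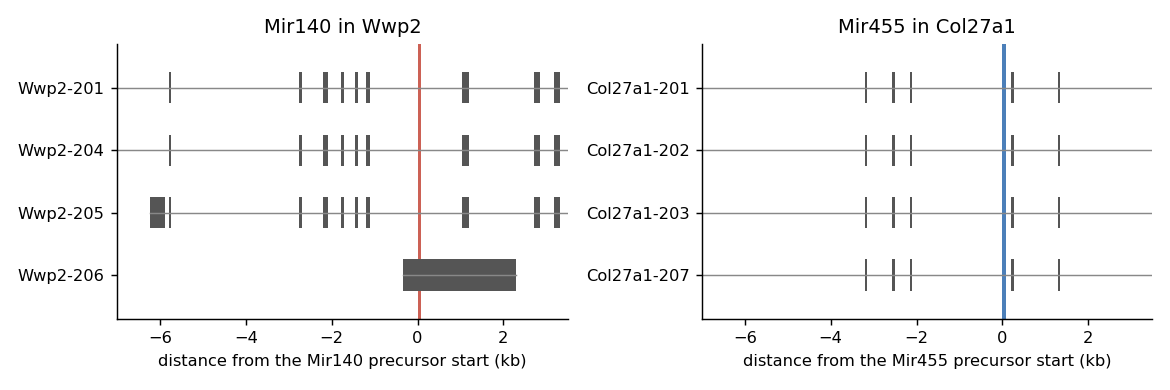
Annotated transcripts that span Mir140 in Wwp2 and Mir455 in Col27a1, by distance from the precursor's first base in kb, with exons as dark boxes, introns as lines and the precursor as a coloured band. Wwp2-205 starts 6232 bases upstream of Mir140 and Wwp2-206 covers it with an exon, whereas Mir455 lies 127 bases before an exon in all 4 transcripts.

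Mir140 was among the most abundant microRNAs of the limb. It received 256154 reads in replicate 1 and 244513 reads in replicate 2. Scaled to the sum of own-strand microRNA counts of each library, this was 55579 CPM (counts per 1000000 counts) and 58999 CPM, a mean of 57289 ± 2418 CPM (SD, n = 2). As a share of the counts, Mir140 made up 5.56% of replicate 1 (Wilson 95% interval 5.54 to 5.58) and 5.90% of replicate 2 (5.88 to 5.92). The intervals of the 2 libraries did not overlap, and replicate 2 was the higher. Such intervals cover only the counting error of reads taken as independent. Reads amplified by PCR without molecular identifiers are not independent molecules, so the intervals may be too narrow. In whole tissue, fewer cells of a type and less RNA per cell cannot be told apart.

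Mir455 was present at a much lower but still deeply counted level. It received 18347 reads in replicate 1 and 17253 reads in replicate 2, equal to 3981 and 4163 CPM, a mean of 4072 ± 129 CPM (SD, n = 2). Its share of the counts was 0.398% in replicate 1 (Wilson 95% interval 0.392 to 0.404) and 0.416% in replicate 2 (0.410 to 0.423). Again replicate 2 was the higher, and again the intervals did not overlap. Both genes together took 6.13% of the own-strand microRNA counts of both libraries pooled.

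The level of Mir140 was 13.96 times that of Mir455 in replicate 1 and 14.17 times in replicate 2, counted in reads, a mean ratio of 14.1 ± 0.149 (SD, n = 2). Divided by the length of each precursor, the ratio was 16.4 in replicate 1 and 16.6 in replicate 2. This ratio is formed within a library and does not depend on how the libraries are scaled. The ratio in replicate 1 divided by that in replicate 2 was 0.985 (95% interval 0.964 to 1.01, counting error only). A difference between the libraries was not detectable at this depth (p = 0.174, two-sided Fisher's exact test on the reads of these 2 libraries). How efficiently each microRNA was captured in the library was not measured, so the ratio compares reads and not molecules.

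Neither gene had a read on its opposite strand in either library. A count of 0 allows an opposite-strand level of up to 0.651 CPM in the first library and 0.724 CPM in the second. The members could therefore be counted with or without regard to strand with the same reads. None of the 3 arms shown occurred in a GENCODE M21 transcript of another gene apart from the host, on either strand, among 141767 transcripts. The longest stretch shared with any other microRNA of the RefSeq table was 9 bases for mmu-miR-140-3p, 10 bases for mmu-miR-455-3p and 11 bases for mmu-miR-455-5p. Reads with several alignments, 31.8% of replicate 1 and 32.6% of replicate 2, were given to no gene in the tables. They are missing from the totals to which both genes were scaled.

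In the order of mean levels over all 1973 genes, counted from reads with a single alignment, Mir140 ranked 2 and Mir455 ranked 47. Reads with several alignments, 2865223 in replicate 1 and 2735942 in replicate 2, are in no gene's count, so microRNAs with near-identical copies are placed too low and the ranks hold only among singly aligned reads. Mir140 also ranked 2 in each library. Counted in reads, Mir140 was 0.698 times Mir335, the gene above it and a microRNA of the imprinted gene Mest, in replicate 1 and 0.799 times in replicate 2. It was 1.06 times Mir322, the gene below it, in replicate 1 and 1.07 times in replicate 2, and 1.12 and 1.08 times Mir196b, a microRNA of the HoxA cluster. The values of Mir140 in the 2 libraries did not overlap with those of these 3 genes, so its place in reads was the same in both libraries.

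Per 100 bases of precursor, the order at the top was not resolved. The libraries held RNAs of the size class of mature arms, so the length of the precursor need not bear on the counts. Where the reads lay within a precursor was not examined. This scale is given as an alternative only and does not replace the order in reads. Mir140 reached 79399 CPM per 100 bases in replicate 1, against 81272 for Mir335. In replicate 2 it reached 84284 CPM per 100 bases, against 75317 for Mir335. Mir140 thus came second in replicate 1 and first in replicate 2 on that scale, and first by the mean, 81841 ± 3454 CPM per 100 bases (SD, n = 2) against 78294 ± 4210. Mir99a, rank 3 by the mean on this scale, lay below Mir140 in both libraries, at 77485 and 76845 CPM per 100 bases. In replicate 2 it lay above Mir335. Mir322 and Mir196b stayed further below Mir140 in both libraries on this scale too, at 56542 ± 1763 and 61147 ± 4089 CPM per 100 bases.

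Mir455 ranked 49 in replicate 1 and 48 in replicate 2, both lower than its place by the mean, because genes around it changed order between the libraries. Its 3981 and 4163 CPM lay below the 2 genes above it, which were Mir151 at 4299 and 4571 CPM and Mir130b at 4696 and 4811 CPM. Its values overlapped with those of the 2 genes below it, which were Mir296 at 4037 and 4074 CPM and Mir125a at 3815 and 4274 CPM. Mir455 exceeded each of these 2 in only 1 of the 2 libraries, so its order against them was not resolved. Per 100 bases of precursor Mir455 stood at 4966 ± 157 CPM (SD, n = 2), rank 49 by the mean, and lay below Mir151, Mir130b, Mir296 and Mir125a in both libraries.

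**Figure D2:**
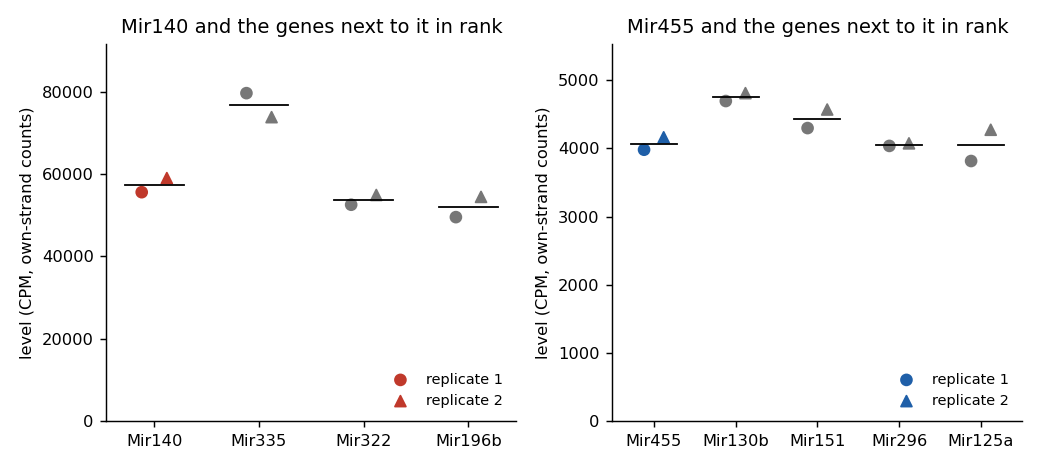
Levels in CPM of own-strand counts, from 0 on a linear axis, of Mir140 (left panel, red) and Mir455 (right panel, blue), each beside the genes next to it in rank (grey), with circles for replicate 1, triangles for replicate 2 and lines for their mean. Mir140 at 55579 and 58999 CPM overlaps with none of the 3 genes beside it, whereas Mir455 at 3981 and 4163 CPM overlaps with Mir296 and Mir125a.

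**Figure D3:**
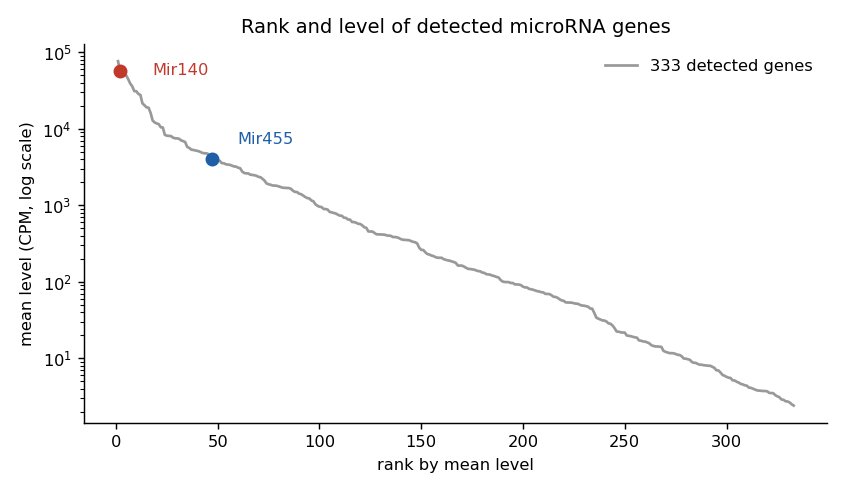
Mean level in CPM (log axis) of the 333 genes that reached 10 counts in each library, in order of rank (grey line), with both members marked. Mir140 stands at rank 2 with 57289 CPM and Mir455 at rank 47 with 4072 CPM.

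Both genes differed little between the libraries, and in this Mir140 lay near the middle of the abundant microRNAs. The SD between the libraries was 4.22% of the mean for Mir140 and 3.16% for Mir455. The counting error of a single library was at most 0.202% of the count for Mir140 and 0.761% for Mir455, and on the CPM scale the spread between the libraries was larger than that for both genes. The log2 ratio of replicate 1 over replicate 2 was -0.086 for Mir140 and -0.065 for Mir455. Among the 98 genes averaging 1000 CPM or more, the median of the absolute log2 ratio was 0.097. Of these genes, 45 had a smaller one than Mir140 and 52 a larger one. For Mir455, 32 had a smaller one and 65 a larger one.

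By a two-sided exact binomial test on the reads, with Benjamini-Hochberg adjustment over the 407 genes that reached 10 counts in the sum of both libraries, both genes were lower in replicate 1 on the CPM scale. The adjusted p was 2.17e-97 for Mir140 and 0.000115 for Mir455. The test called 145 of the 407 genes, or 35.6%, at an adjusted p under 0.05. Among the 98 abundant genes it called 80, or 81.6%, so a call was common at the depth of the members. It sets reads of these 2 libraries against counting noise and compares no conditions.

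The direction rested on the scaling for Mir455. With TMM factors its log2 ratio was -0.0024 (adjusted p = 0.966, exact binomial test), and with DESeq2 size factors it was 0.0074 (adjusted p = 0.839), on the opposite side of 0. For Mir140 the log2 ratio was -0.024 with TMM factors (adjusted p = 2.82e-08) and -0.014 with DESeq2 size factors (adjusted p = 0.00191), of the same sign as on the CPM scale and nearer to 0. Of the genes called, 55.9% were lower in replicate 1 on the CPM scale, 34.4% with TMM factors and 30.4% with DESeq2 size factors.

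**Figure D4:**
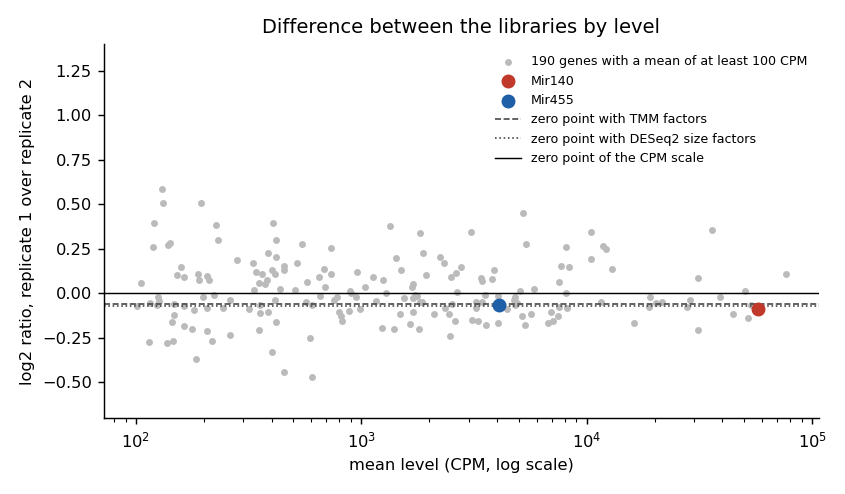
Log2 ratio of replicate 1 over replicate 2 against mean level in CPM (log axis) for the 190 genes averaging 100 CPM or more (grey), with Mir140 in red and Mir455 in blue. The horizontal lines mark where a ratio of 0 would lie on the CPM scale and with TMM factors or DESeq2 size factors, and Mir455, at -0.065, lies close to the lines of the other scalings.

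The assay measured no chondrocyte mRNA, so how much of the signal of Mir140 and Mir455 came from cartilage was not measured. Markers of other limb tissues were read alongside them. All 7 listed microRNAs of surface epithelium were detected, with a summed level of 64405 CPM in the first library and 53931 CPM in the second. Most of that was Mir203, at 40413 and 31563 CPM. Of 7 listed muscle microRNAs, 6 were in the tables and 3 were detected, with sums of 6425 and 4682 CPM. Nearly all of that was Mir206, at 6041 and 4411 CPM. The muscle sums are lower limits, since Mir1a-1, Mir133a-1 and Mir133a-2, at 1 or 2 counts per library, have near-identical copies. The 3 erythroid genes, all detected, summed to 547 and 417 CPM, from which reads with several alignments may be missing. Of them, Mir486 gave 8.03 and 7.96 CPM and had 14 and 1 reads on its opposite strand. These 3 sums were higher in replicate 1, the library in which both members were lower on the CPM scale, and their part in that difference was not tested. Mir126a of endothelium stood at 18963 and 19268 CPM, and the 3 leukocyte genes, all detected, summed to 598 and 655 CPM. Of 5 brain genes in the tables, 0 were detected and 4 had no count. Their values are uncertain, since they have near-identical copies and reads with several alignments were given to no gene. The liver gene Mir122 stood at 6.29 and 13.5 CPM. The 2 genes listed for heart summed to 139 and 106 CPM, with 1 detected. That was Mir208b, at 137 and 104 CPM, whereas Mir208a stood at 2.39 and 2.17 CPM. The tissue from which Mir208b came was not measured, so the sum cannot be read as heart signal.

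Other microRNAs studied in chondrocyte differentiation were read from a list of 21 genes, all in the tables, one of them (Mir146a) under the symbol Mir146. Of these, 19 reached 10 counts in each library. Together they summed to 18582 and 18258 CPM in replicates 1 and 2, against 55579 and 58999 CPM of Mir140. The sum is a lower limit, since the list holds genes with near-identical copies, such as Mir199a-1 and Mir199a-2, whose reads with several alignments were not counted. The highest was Mir21a, a microRNA of growth and matrix signalling, at 7520 ± 229 CPM (SD, n = 2), followed by Mir30a at 4797 ± 159 CPM and Mir337 at 1887 ± 208 CPM. Mir140 was 7.62 times Mir21a in mean reads and 10.01 times per base of precursor. Mir455 was 0.541 times Mir21a in mean reads and 0.608 times per base of precursor.

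The library test called 5 of the 20 tested members of that list, against 35.6% of all genes tested. Of the 5, 2 were lower in replicate 1, as Mir140 and Mir455 were, and 3 were higher. The median log2 ratio over the tested members was -0.0041, against -0.042 over all 407 genes. Mir145a and Mir495, which are studied as repressors of Sox9, stood at 163 ± 7.30 and 138 ± 18.4 CPM (SD, n = 2). Mir675, cut from the imprinted transcript H19, stood at 124 CPM in replicate 1 and 126 CPM in replicate 2. Mir140 was 351 times Mir145a, 414 times Mir495 and 458 times Mir675 in mean reads.

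Target sites were described for 4 genes studied as targets of miR-455 in cartilage cells, Acvr2b and Smad2 of activin and TGF-beta signalling, the BMP antagonist Chrdl1 and the hypoxia factor Epas1. The letters GGCACAT, the complement of the mmu-miR-455-5p seed, were searched on the transcript strand of the longest annotated 3′ UTR of each gene. They occurred once in Acvr2b (3′ UTR of 1534 bases) and once in Chrdl1 (2648 bases), and not in these windows of Smad2 and Epas1. Both sites are given here, from GENCODE M21 transcripts on GRCm38, with the match in capitals.
Acvr2b: acactggacttgGGCACATttggagcaaca
Chrdl1: tagccattcctaGGCACATgaatttatcat
Of all protein-coding genes with a 3′ UTR at least as long, cut to the same length, 8.66% held these letters for the length of Acvr2b and 15.2% for that of Chrdl1. The letters TGGACTG, the complement of the mmu-miR-455-3p seed, occurred once in the 3′ UTR of Smad2 (6233 bases, where 35.0% of windows of this length held them) and not in the windows of the other 3 genes. The matches are a description of sequence, and no mRNA was measured here.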

How the data were processed

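Small RNAs were sequenced from 2 limb libraries. The authors deposited raw read counts per gene, aligned to mm10 and counted on GENCODE M4 per the read-me texts that accompany the deposited files. The aligner, the counter and their settings are not given in the sources used here. The deposited count columns have no header. Column 3 was taken as the gene's own strand, judged from the values. Tally rows (48.8% and 50.6% of all reads: unmapped, several alignments, no gene) stayed out of totals and tests, leaving 4608816 and 4144385 counts, and the floor is 3 counts.

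Symbols and positions came from GENCODE M21, on the same build, by identifier (1894 of 1973 genes matched). Sequences came from RefSeq tables and, for target sites, GENCODE transcripts. Both members matched. CPM was the count over the own-strand sum. The libraries were compared by an exact binomial test given the totals, adjusted over all genes with at least 10 counts in total (log2 ratios with a prior count of 0.5), since edgeR's quasi-likelihood test needs more than 1 library a side. The test was checked on simulated counts that held counting noise only, with library sizes taken from the genes left unchanged. That check cannot tell how the test behaves under further spread between libraries or another scaling. edgeR 4.0.16 gave TMM factors and DESeq2 1.42.0 size factors, in R 4.3.3, and other steps used scipy 1.17.1, pandas 2.3.3 and numpy 2.4.6 under Python 3.11.15.

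The members, lists and tests were chosen with earlier results of these data known. Named genes were the members, the genes up to 2 places above and below them in rank, genes sharing a seed and the 3 highest of the chondrocyte and bone lists. Marker genes were named from the fixed marker lists. Mir99a, Mir145a, Mir495, Mir675, Mir199a-1, Mir199a-2 and Mir2861 were named after their values were seen. Alternatives were other totals, strands, scalings, count filters, precursor length and 1 library alone.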

Additional observations from a re-analysis of the deposited data

How the results depend on the processing

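With the total changed, the level of Mir140 was 34905 CPM and that of Mir455 2481 CPM when reads with several alignments were added, 28804 and 2048 CPM when all reads were, and 62045 and 4410 CPM without the most abundant gene. Per 100 bases of precursor the levels were 81841 and 4966 CPM, Mir140 ranked 1 and Mir455 ranked 49, and their ratio was 16.5. Counted on either strand, Mir455 ranked 51 and Mir140 kept rank 2. In 1 library alone, Mir140 lay between 55579 and 58999 CPM, Mir455 between 3981 and 4163 CPM at rank 48 to 49, and their ratio between 13.96 and 14.17. The log2 ratio of replicate 1 over replicate 2 for Mir455 lost its call with TMM factors (-0.0024) and reversed with DESeq2 size factors (0.0074), and its adjusted p ranged from 4.13e-05 to 0.966 over 5 alternatives. That of Mir140 was negative and called under these 5 alternatives, with an adjusted p from 3.77e-105 to 0.00191. The scalings moved the median log2 ratio of all genes tested by 0.062 (TMM) and 0.072 (DESeq2). The number of genes called lay between 121 and 155 over the same 5 alternatives, against 145. No paired analysis was possible because there is 1 group. With 2 libraries, spreads between animals remain poorly known.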

Other observations

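Of 12 listed microRNAs studied in bone formation, 11 were in the tables and 9 were detected, with a summed level of 29962 and 34467 CPM in replicates 1 and 2, a lower limit, since some of them have near-identical copies and reads with several alignments were not counted. Nearly all of it was Mir214, a microRNA of mesenchyme studied as a repressor of bone formation, at 31163 ± 3130 CPM (SD, n = 2), and it was followed by Mir34c at 571 ± 13.6 CPM and Mir204 at 350 ± 34.8 CPM. Mir140 was 1.84 times Mir214 in mean reads and 2.89 times per base of precursor, and Mir455 was 0.131 times Mir214 in mean reads and 0.175 times per base of precursor. The library test called 2 of the 9 tested members, both lower in replicate 1, against 35.6% of all genes tested. Mir2861 had no count in either library, which allows up to 0.651 CPM in the first and 0.724 CPM in the second.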
